A study of Mus musculus with 18 samples.

Results

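The genes described here are the mouse C-type lectin genes with a Clec symbol and the killer cell lectin-like receptor genes with a Klr symbol. They were chosen by name, as symbols that start with Clec or Klr followed by a letter or a digit, from the probe sets that map to 1 gene, with the probe set of highest mean kept for each gene. This gave 54 genes of the 22180 genes that had a probe set of their own, 31 of them Clec genes and 23 Klr genes. RNA from sorted bone marrow cells of 4F transgenic mice was measured on 18 Affymetrix arrays in 6 groups of 3. The 4F mice carry Oct4, Sox2, Klf4 and c-Myc under the control of doxycycline (Dox), and the cells of every group, controls included, came from such mice. The groups were AML cells given Dox (AML Dox), AML cells given the reprogramming compounds (AML Compound), untreated AML cells (AML Control), LSK cells given Dox (LSK Dox), LSK cells given the compounds (LSK Compound) and untreated LSK cells (LSK Control). AML cells were GFP-positive acute myeloid leukemia cells driven by the MLL-AF9 fusion and taken from leukemic mice. LSK cells were lineage-negative, Kit-positive, Sca1-positive cells, the fraction of normal marrow that holds stem and early progenitor cells. Treatment lasted 24 h in vitro (the labels give the controls no time of their own), and the compound mix held VPA, CHIR, 616452 and TCP. Arrays of a group are labelled as biological repeats, with no separate animals or cultures named and no age, so the p-values below measure the spread between these samples. The labels do not say how many leukemias the AML cells came from, or which promoter drives the factors.

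C-type lectins share a fold that in many members binds sugars in the presence of calcium, and several Clec receptors of myeloid cells recognize sugars or lipids of fungi, mycobacteria and dead cells. Some pass their signal through the adaptors Fcer1g or Tyrobp to the kinase Syk and the adaptor Card9. Others carry an inhibitory motif and recruit the phosphatases Ptpn6 and Ptpn11. The Klr receptors sit mainly on natural killer cells, where they read MHC class I, stress ligands or Clec2 proteins and set the threshold for killing.

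Of the 4 factors, Klf4 was higher on the Dox arrays of both cell types. It stood at 9.21, 9.16 and 9.06 log2 in AML Dox against 3.12, 3.29 and 3.39 in AML Control. In LSK Dox it stood at 8.30, 8.15 and 8.18 against 3.95, 3.72 and 3.82 in LSK Control. Sox2 and Pou5f1 (Oct4) lay higher in AML Dox (3.60 to 4.56 and 3.30 to 3.73) than in AML Control (2.58 to 2.89 and 2.77 to 2.99). In LSK Dox both overlapped LSK Control. Myc was lower, at 4.16 to 4.82 in AML Dox against at least 8.63 in AML Control. It lay at 8.66 to 8.89 in LSK Dox against 9.19 to 9.41 in LSK Control. A rise of all 4 factors was thus seen by these probe sets in neither cell type. Whether the probe sets read RNA from the Dox-driven copies was not checked. A single array stood apart. LSK Compound replicate 1 correlated with the other 17 arrays at r of 0.638 to 0.672 over all probe sets, against 0.979 to 0.989 within the groups of the other arrays and 0.904 to 0.979 between them. On it the housekeeping genes Actb, Gapdh and B2m stood at 4.56, 5.49 and 4.16 log2, each below its lowest value on the other arrays (8.83, 11.39 and 12.02). It was left out of the levels and tests below, so LSK Compound rests on 2 arrays, and called results of these genes that use this group are also given with it. The remaining LSK Compound arrays carried transcripts of the Y chromosome: Eif2s3y, Kdm5d and Uty lay between 4.30 and 5.47 log2 there and at or below 2.67 on the other 15 arrays. Xist, the X-inactivation RNA, stood at 7.35 and 7.32 on them, against 9.28 to 9.77 on the LSK Dox and LSK Control arrays. On the AML arrays Xist lay between 2.34 and 3.01. Among the LSK arrays in the fit these sex-linked transcripts thus set the compound arrays apart, and Xist set the AML arrays apart from the LSK arrays. Effects of the compounds and of a different source of the LSK Compound cells therefore cannot be told apart. The same holds for the AML and LSK labels and the Xist level. The part of these transcripts in the results was not tested. The AML and LSK labels were set against markers: of 8 genes for AML and myeloid progenitors 7 were higher and 0 lower in AML Control than in LSK Control, and of 6 tested stem and progenitor genes 1 was higher and 5 lower. Of all tested genes, 15.4% were higher and 14.2% lower in AML Control. The 8 AML and myeloid progenitor genes, and 6 of 7 measured stem and progenitor genes, lay above the detection level in both controls.

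Values are log2 intensities from RMA, a procedure that subtracts background, normalizes between arrays and summarizes the probes. An array has no absolute zero, so a gene was called detected on an array where its value exceeded the 40th percentile of that array (2.32 to 2.41 log2). Of the 54 genes, 11 were above it on all 17 arrays (20.4%, against 53.6% of all genes), 22 on some arrays and 21 on none. The 11 were the Clec genes Clec2d, Clec2i, Clec3b, Clec4e, Clec5a, Clec11a, Clec12a, Clec16a and Clec18a and the Klr genes Klrb1f and Klrg2. The 21 that were above it nowhere comprised 16 Klr and 5 Clec genes. In the AML groups, 14 of the 54 genes were above it on every AML Dox array, 19 on every AML Compound array and 16 on every AML Control array. In the LSK groups the numbers were 19 in LSK Dox, 18 in LSK Compound and 18 in LSK Control. LSK Compound has fewer arrays than the other groups, so its number is less strict. The share of all genes was not computed for each group, so these numbers are not compared. Of the genes outside the tests, Clec4a4 was the only one above 3 log2 on any of the 17 arrays.

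**Figure D1:**
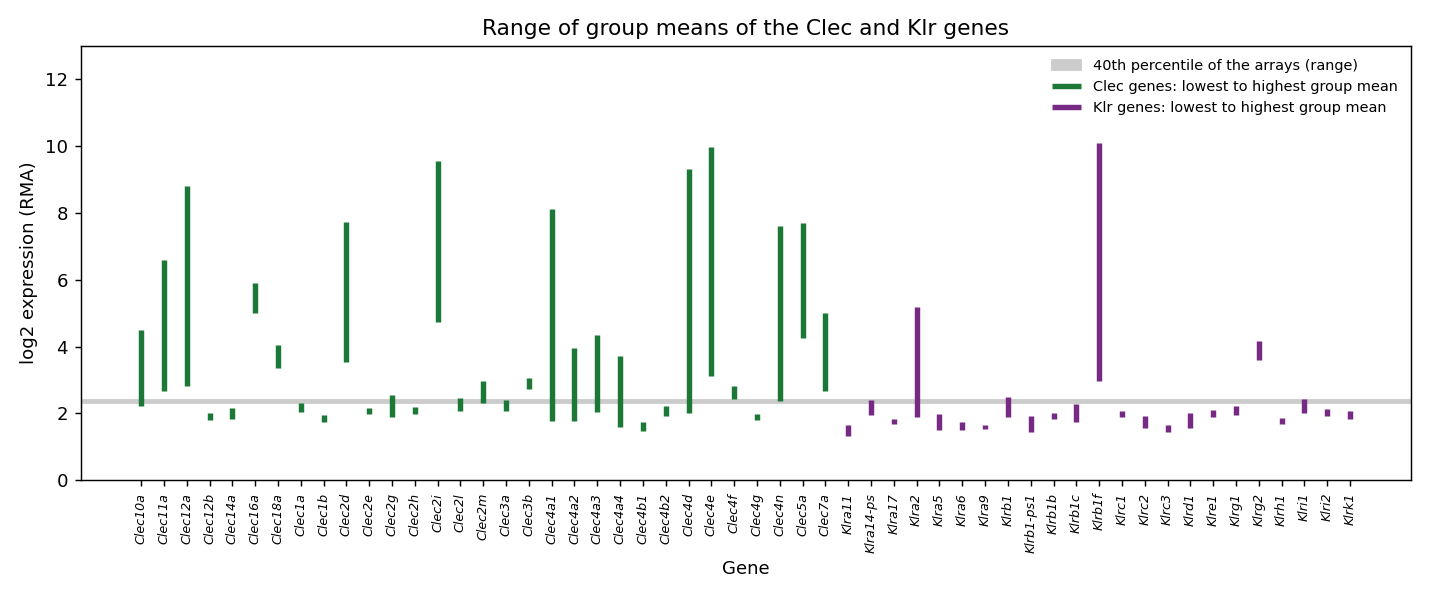
Range of the 6 group means (lowest to highest, log2 RMA values) of each of the 54 genes in alphabetical order, Clec genes in green and Klr genes in purple, over 17 arrays; the grey band is the range of the 40th percentiles. Most Klr genes lie at or under the band in every group, Klrb1f, Klra2 and Klrg2 have group means of over 4 log2, and the Clec genes with long bars are those whose level differs most between groups.

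Several receptors of natural killer cells were among those not detected. Klrd1 (CD94), Klrc1 (NKG2A) and Klrk1 (NKG2D) were above the 40th percentile on none of the 17 arrays, with highest values of 2.22, 2.39 and 2.37 log2. Klrb1c was above it on 2 arrays, both of LSK Control, and Klrb1 on 6. Of 10 natural killer cell markers outside the Klr family 7 were tested, and Ncr1, Gzma and Eomes were not, with group means from 1.51 to 2.19 log2. Tbx21 and Prf1 lay above the 40th percentile on every array, with group means of 3.35 to 3.49 and 2.83 to 3.12. Il2rb, Xcl1 and Cd160 averaged 2.48 to 2.77, 2.18 to 2.32 and 2.33 to 2.61. Gzmb, a granzyme gene, averaged 4.62 in LSK Dox, 6.69 in LSK Compound and 5.77 in LSK Control, and 2.06 to 2.33 in the AML groups, and Nkg7 averaged 3.69 to 5.53 over the 6 groups. The mean level of the list was 2.46 to 2.53 in AML Dox, 2.47 to 2.65 in AML Compound, 2.55 to 2.61 in AML Control, 2.92 to 3.04 in LSK Dox, 3.005 to 3.10 in LSK Compound and 3.03 to 3.12 in LSK Control. Of the 7 Klra (Ly49) genes 2 were tested. Some Klra genes are so alike that they share probe sets, and those probe sets were left out. Probe sets kept for 1 of the closely related genes may still read another.

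A gene was tested where it was above the 40th percentile on at least 3 of the 17 arrays. That left 27 of the 54 genes (21 Clec and 6 Klr), against 73.7% of all genes. A gene that passed only through the group where it is high had to differ, so the counts that follow describe those 27 genes and support nothing about the family. Differences were tested with limma over all 16337 genes that passed, at a limma adjusted p under 0.05. In AML Dox against AML Control 12 of the genes were called, 5 higher and 7 lower, where 48.6% of all tested genes were called (23% higher and 25.6% lower). In AML Compound against AML Control 14 were called, 12 higher and 2 lower, beside 32.0% of all tested genes (12.8% higher and 19.2% lower). In LSK Dox against LSK Control 10 were called, 5 each way, beside 19.1% (9.21% higher and 9.93% lower), and in LSK Compound against LSK Control 12, 7 higher and 5 lower, beside 34.2% (14.2% higher and 20.0% lower). The difference between the AML and the LSK response passed for 11 genes with Dox, 6 of them higher in AML cells and 5 lower, beside 40.1% of all tested genes (18.6% higher and 21.5% lower). With the compounds it passed for 12, 8 higher and 4 lower, beside 17.1% (8.69% higher and 8.37% lower). The medians of the 27 genes were -0.08 log2 in AML Dox and 0.33 log2 in AML Compound, beside -0.01 and -0.03 over all tested genes. In LSK Dox and LSK Compound they were -0.01 and -0.003 log2, beside -0.05 and -0.05.

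The 7 genes that were higher in LSK Compound than in LSK Control were also among the 12 that were higher in AML Compound than in AML Control (58.3% of those 12 and 100% of the 7): Clec2d, Clec2i, Clec4a1, Clec4a3, Clec4d, Clec4e and Clec4n. Over all tested genes, the genes called higher with the compounds in both cell types were 53.3% of those higher in AML Compound and 47.9% of those higher in LSK Compound. With replicate 1, of the 7 only Clec4a1 and Clec4a3 were called higher in LSK Compound. With values below the 40th percentile set to it, the call of Clec4a1 in AML Compound was lost. Clec5a and Clec12a went opposite ways, higher in AML Compound and lower in LSK Compound than in their controls. Clec4a2 was called the same way, but its LSK Compound call lay at the detection level and did not hold. With Dox, Clec2i was higher and Clec4d, Clec7a and Clec12a were lower in both cell types, Clec5a was higher in AML and lower in LSK cells, and Klrb1f was lower in AML and higher in LSK cells.

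Clec4e, Clec4d and Clec4n encode Mincle, MCL and Dectin-2, activating receptors of myeloid cells that pair with the adaptor Fcer1g and recognize mycobacterial glycolipids (Mincle and MCL) and fungal mannans (Dectin-2). Clec4e stood at 3.52, 2.67 and 3.18 log2 in AML Dox, at 9.41, 9.53 and 9.29 in AML Compound and at 7.25, 7.27 and 7.15 in AML Control. The 3 groups did not overlap, with AML Dox lowest and AML Compound highest. The log2 difference was -4.10 (SE 0.16, limma adjusted p = 6.19e-13, 17.2-fold lower) for AML Dox and 2.18 (SE 0.16, limma adjusted p = 1.36e-08, 4.55-fold higher) for AML Compound. In the LSK groups Clec4e read 5.94, 6.24 and 5.86 in LSK Dox, 9.94 and 9.997 in LSK Compound and 5.81, 5.86 and 5.72 in LSK Control. LSK Compound lay above both other groups, and the lowest LSK Dox array was level with the highest LSK Control array. The LSK Compound difference was 4.17 log2 (SE 0.18, limma adjusted p = 6.41e-12), while with LSK Compound replicate 1, where Clec4e read 2.53, it was 1.69 (limma adjusted p = 0.345). For LSK Dox it was 0.21 (limma adjusted p = 0.411).

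Clec4d was higher with the compounds and lower with Dox in both cell types. It stood at 1.85, 1.96 and 2.20 log2 in AML Dox, at 8.29, 8.48 and 7.88 in AML Compound and at 3.25, 3.65 and 3.51 in AML Control. In LSK cells it read 3.09, 3.23 and 2.91 in LSK Dox, 9.21 and 9.42 in LSK Compound and 4.21, 3.63 and 4.32 in LSK Control. In both cell types the Dox arrays lay below, and the compound arrays above, every control array. Clec4d was 26.9-fold higher in AML Compound (log2 difference 4.75, SE 0.18, limma adjusted p = 3.5e-12) and 38.4-fold higher in LSK Compound (5.26, SE 0.20, limma adjusted p = 2.09e-12) than in the controls. With LSK Compound replicate 1, where it read 2.82, the LSK value was 3.10 log2 (limma adjusted p = 0.0745). Against the controls, AML Dox differed by -1.47 log2 (SE 0.18, limma adjusted p = 1.86e-06) and LSK Dox by -0.98 (SE 0.18, limma adjusted p = 0.00085). The AML Dox arrays lay below the 40th percentile, and with values below it set to it, the AML Dox difference was -1.08 log2. The responses of the cell types did not pass the test of their difference, at -0.49 log2 (SE 0.25) with Dox and -0.51 (SE 0.27) with the compounds (limma adjusted p = 0.147 and 0.237). With replicate 1 the compound value was 1.65 log2 (limma adjusted p = 0.592), with the sign turned.

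Clec4n stood at 2.92, 1.94 and 2.24 log2 in AML Dox, at 7.10, 6.97 and 6.31 in AML Compound and at 2.59, 2.27 and 2.49 in AML Control. AML Compound was far above the other groups, and AML Dox and AML Control overlapped. The difference for AML Compound was 4.35 log2 (SE 0.31, limma adjusted p = 1e-08, 20.3-fold higher), and that for AML Dox was -0.08 (limma adjusted p = 0.865). In LSK cells Clec4n read 3.01, 3.16 and 2.67 in LSK Dox, 7.76 and 7.46 in LSK Compound and 4.46, 3.57 and 5.03 in LSK Control. The 3 LSK groups did not overlap, and the control arrays were spread the most. LSK Compound was higher by 3.26 log2 (SE 0.34, limma adjusted p = 7.66e-07; 1.59 and limma adjusted p = 0.23 with replicate 1) and LSK Dox lower by 1.41 (log2 difference -1.41, SE 0.31, limma adjusted p = 0.0033).

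**Figure D2:**
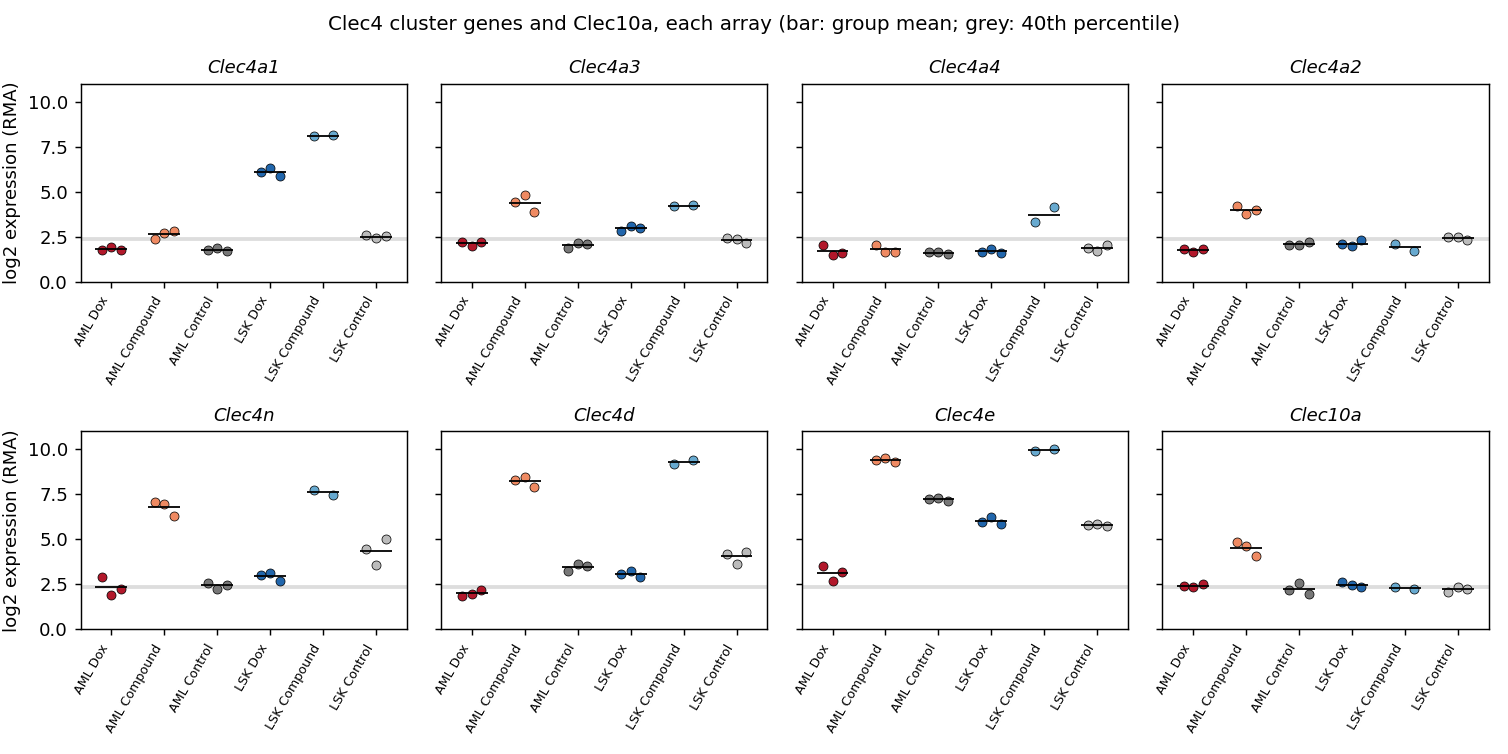
log2 RMA values of 7 Clec4 genes and Clec10a on each of the 17 arrays (points) with group means (bars), in the order AML Dox, AML Compound, AML Control, LSK Dox, LSK Compound and LSK Control; the grey line marks the 40th percentile. Clec4e, Clec4d and Clec4n are highest in the compound groups of both cell types, and Clec4a1 is highest in LSK Compound and LSK Dox.

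In the RefSeq gene order, Clec4a1, Clec4a3, Clec4a4, Clec4b1, Clec4a2, Clec4b2, Clec4n, Clec4d and Clec4e are 9 consecutive protein-coding genes on chromosome 6, of which 6 were tested. The 250 bases before the RefSeq start (GRCm38.p6) are printed for Clec4d and Clec4e, neighbours that were both higher with the compounds in each cell type, for Clec4a1 at the other end of the run, and for Clec5a, which moved opposite ways in the cell types. The letters are 5' to 3' on the gene's strand, and capitals mark matches to motifs searched on both strands.
Clec4d (chr6:123261857-123262106, plus strand): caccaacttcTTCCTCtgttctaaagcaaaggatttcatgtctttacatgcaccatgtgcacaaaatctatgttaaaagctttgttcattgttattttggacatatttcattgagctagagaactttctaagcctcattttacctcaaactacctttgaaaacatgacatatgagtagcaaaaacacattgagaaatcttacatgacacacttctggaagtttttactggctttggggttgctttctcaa
Clec4e (chr6:123289872-123290121, minus strand): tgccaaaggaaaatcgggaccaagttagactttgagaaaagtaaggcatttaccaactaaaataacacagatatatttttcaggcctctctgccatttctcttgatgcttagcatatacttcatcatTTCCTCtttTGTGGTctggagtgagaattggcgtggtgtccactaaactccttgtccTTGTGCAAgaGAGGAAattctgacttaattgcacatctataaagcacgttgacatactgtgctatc
Clec4a1 (chr6:122921598-122921847, plus strand): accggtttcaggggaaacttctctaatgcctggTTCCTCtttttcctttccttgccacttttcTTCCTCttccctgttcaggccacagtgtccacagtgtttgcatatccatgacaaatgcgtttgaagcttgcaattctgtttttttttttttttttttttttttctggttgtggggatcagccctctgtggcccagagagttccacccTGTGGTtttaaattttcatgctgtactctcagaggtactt
Clec5a (chr6:40585806-40586055, minus strand): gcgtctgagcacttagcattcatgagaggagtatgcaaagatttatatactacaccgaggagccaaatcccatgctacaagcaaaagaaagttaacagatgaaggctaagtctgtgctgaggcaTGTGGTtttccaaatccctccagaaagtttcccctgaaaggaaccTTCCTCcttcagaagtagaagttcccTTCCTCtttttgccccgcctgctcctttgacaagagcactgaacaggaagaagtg
The motifs were those of PU.1 (GAGGAA), RUNX (TGTGGT), C/EBP (TTGCNNAA) and AP-1 (TGANTCA). The PU.1 letters occurred in 4 of the 4 windows and in 23.3% of 32851 promoter windows of RefSeq. The RUNX letters occurred in the windows of Clec4e, Clec4a1 and Clec5a (14.0% of all windows) and the C/EBP letters in that of Clec4e (9.56%). The AP-1 letters were in none of the 4 (6.75% of all windows). A match describes letters and shows no binding.

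The Clec4a genes encode the dendritic cell immunoreceptors, and Clec4a2 (DCIR), for example, carries an inhibitory motif. Clec4a1 (DCIR4) stood at 1.75, 1.93 and 1.74 log2 in AML Dox, at 2.36, 2.71 and 2.81 in AML Compound and at 1.75, 1.89 and 1.68 in AML Control. In LSK cells it stood at 6.09, 6.33 and 5.87 in LSK Dox, at 8.08 and 8.14 in LSK Compound and at 2.60, 2.40 and 2.52 in LSK Control. Clec4a1 was thus below the detection level on every AML Dox and AML Control array, and slightly above it in AML Compound and LSK Control. It was far above that level in both treated LSK groups, which did not overlap. Clec4a1 was 12.1-fold higher in LSK Dox (log2 difference 3.59, SE 0.13, limma adjusted p = 3.09e-12) and 48.6-fold higher in LSK Compound (5.60, SE 0.14, limma adjusted p = 1.59e-14; 3.58 and limma adjusted p = 0.0305 with replicate 1, which read 2.05) than in LSK Control. The AML Compound difference of 0.85 log2 (limma adjusted p = 5.92e-05) was 0.28 with values below the 40th percentile set to it (limma adjusted p = 0.082). The response in AML minus that in LSK cells was -3.56 log2 with Dox (SE 0.18, limma adjusted p = 1.07e-10) and -4.75 with the compounds (SE 0.19, limma adjusted p = 2.16e-11; -2.73 and limma adjusted p = 0.449 with replicate 1).

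Clec4a2 and Clec4a3 responded to the compounds in AML cells. Clec4a2 read 1.83, 1.67 and 1.81 log2 in AML Dox, 4.18, 3.74 and 3.97 in AML Compound and 2.05, 2.06 and 2.19 in AML Control. Its AML Compound arrays were the only ones of that gene clearly above the detection level, with a difference of 1.87 log2 (SE 0.13, limma adjusted p = 6.08e-09). Clec4a2 was above that level on 5 arrays, 3 of them AML Compound. It thus passed the filter through the group where it is high, and this call gives no support of its own. The AML Dox difference of -0.33 (limma adjusted p = 0.0388) was between values all below the detection level. In LSK cells Clec4a2 read 2.08, 1.97 and 2.29 in LSK Dox, 2.10 and 1.70 in LSK Compound and 2.50, 2.46 and 2.32 in LSK Control, with the controls at the detection level and the treated arrays under it. The LSK Compound difference was -0.53 (limma adjusted p = 0.00697; -0.31 and limma adjusted p = 0.235 with replicate 1). With values below the 40th percentile set to it, the AML Dox and LSK Compound differences were 0.04 and -0.06 log2 (limma adjusted p = 0.739 for each), so neither call held. The LSK Compound call was also lost without LSK Compound replicate 3 (-0.33 log2, limma adjusted p = 0.171).

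Clec4a3 (DCIR3) stood at 2.23, 1.97 and 2.21 log2 in AML Dox, at 4.43, 4.79 and 3.86 in AML Compound and at 1.86, 2.17 and 2.07 in AML Control. It read 2.80, 3.11 and 2.98 in LSK Dox, 4.20 and 4.23 in LSK Compound and 2.41, 2.34 and 2.16 in LSK Control. The compound arrays lay above all others in both cell types, and LSK Dox lay between LSK Compound and LSK Control. The differences were 2.33 log2 in AML Compound (SE 0.17, limma adjusted p = 1.91e-08), 1.91 in LSK Compound (SE 0.19, limma adjusted p = 4.67e-07; 1.48 and limma adjusted p = 0.00339 with replicate 1) and 0.66 in LSK Dox (SE 0.17, limma adjusted p = 0.0115). The LSK Dox call was lost without LSK Dox replicate 2 or LSK Control replicate 3 (0.59 log2 each, limma adjusted p = 0.0535 and 0.0541). Clec4a4 (DCIR2) was not tested, since it was above the 40th percentile on 2 arrays, those of LSK Compound at 3.29 and 4.12 log2, while on the other 15 arrays it was between 1.48 and 2.06.

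Clec5a encodes MDL-1, a receptor that signals through Tyrobp. It stood at 7.41, 7.32 and 7.41 log2 in AML Dox, at 7.62, 7.78 and 7.67 in AML Compound and at 4.48, 4.29 and 4.57 in AML Control. Both treated AML groups lay far above the control, and AML Compound above AML Dox on every array. In LSK cells the control was highest instead, with 4.15, 4.33 and 4.33 in LSK Dox, 5.04 and 5.05 in LSK Compound and 5.70, 5.60 and 5.86 in LSK Control. Clec5a was 7.65-fold higher in AML Dox (log2 difference 2.94, SE 0.10, limma adjusted p = 8.44e-14) and 9.49-fold higher in AML Compound (3.25, SE 0.10, limma adjusted p = 1.7e-13) than in AML Control. Against LSK Control it was lower by 1.45 in LSK Dox (log2 difference -1.45, SE 0.10, limma adjusted p = 6.28e-09) and by 0.68 in LSK Compound (-0.68, SE 0.11, limma adjusted p = 7.23e-05; -0.91 and limma adjusted p = 0.00214 with replicate 1). The AML response exceeded the LSK response by 4.39 log2 with Dox (SE 0.13, limma adjusted p = 4.12e-13) and by 3.92 with the compounds (SE 0.14, limma adjusted p = 6.86e-12; 4.16 with replicate 1).

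Clec7a encodes Dectin-1, the receptor for beta-glucans of fungal walls. It read 2.75, 2.91 and 2.37 log2 in AML Dox, 3.82, 4.17 and 3.62 in AML Compound and 3.69, 3.41 and 3.54 in AML Control. It read 3.43, 3.45 and 3.71 in LSK Dox, 4.01 and 3.91 in LSK Compound and 5.09, 4.80 and 5.15 in LSK Control. AML Dox was below AML Control and both treated LSK groups below LSK Control, with no overlap, whereas AML Compound and AML Control overlapped. The differences were -0.87 log2 in AML Dox (SE 0.15, limma adjusted p = 0.000111), -1.49 in LSK Dox (SE 0.15, limma adjusted p = 1.88e-06) and -1.05 in LSK Compound (SE 0.17, limma adjusted p = 0.000103; -1.14 with replicate 1). The AML Compound difference was 0.33 log2 (SE 0.15, limma adjusted p = 0.124). The compound response was 1.38 log2 higher in AML than in LSK cells (SE 0.23, limma adjusted p = 0.00032; 1.47 with replicate 1).

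Clec10a encodes the macrophage galactose-type lectin MGL1. It stood at 2.39, 2.34 and 2.55 log2 in AML Dox, at 4.83, 4.62 and 4.07 in AML Compound and at 2.19, 2.56 and 1.95 in AML Control, while the LSK arrays lay between 2.10 and 2.62. AML Compound was the only group above the rest. Clec10a was higher there than in AML Control by 2.27 log2 (SE 0.17, limma adjusted p = 2.27e-08), and the compound response was higher in AML than in LSK cells by 2.18 (SE 0.26, limma adjusted p = 7.89e-06; 2.12 with replicate 1).

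Clec12a encodes MICL, an inhibitory receptor for uric acid crystals and dead cells whose human counterpart is used as a surface marker of leukemic stem cells in AML. It stood at 2.85, 2.68 and 2.92 log2 in AML Dox, at 8.80, 8.93 and 8.67 in AML Compound and at 8.11, 7.96 and 8.11 in AML Control. With Dox the gene was thus close to the detection level in AML cells, and with the compounds it lay above every control array. In LSK cells it read 6.49, 6.37 and 6.54 in LSK Dox, 3.38 and 3.36 in LSK Compound and 7.56, 7.47 and 7.54 in LSK Control. Here the compound group was the lowest and LSK Dox lay between it and the control. Against their controls Clec12a was 38.0-fold lower in AML Dox (log2 difference -5.25, SE 0.09, limma adjusted p = 1.56e-16) and 17.8-fold lower in LSK Compound (-4.15, SE 0.10, limma adjusted p = 1.43e-14; -4.29 with replicate 1). The other differences were 0.74 log2 in AML Compound (limma adjusted p = 9.01e-06) and -1.06 in LSK Dox (limma adjusted p = 2.39e-07). The response in AML minus that in LSK cells was -4.19 log2 with Dox (SE 0.13, limma adjusted p = 4.12e-13) and 4.89 with the compounds (SE 0.14, limma adjusted p = 4.46e-13; 5.02 with replicate 1). In such bulk samples, fewer cells of a type and less RNA per cell cannot be told apart.

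Clec11a encodes a secreted growth factor of blood stem cells rather than a receptor. It stood at 2.704, 2.699 and 2.88 log2 in AML Dox, at 3.50, 3.87 and 3.33 in AML Compound and at 6.68, 6.71 and 6.36 in AML Control. All LSK arrays in the fit lay between 2.59 and 3.15. AML Control thus stood above every other group, and both treated AML groups were closer to the LSK levels. Clec11a was 14.1-fold lower in AML Dox (log2 difference -3.82, SE 0.14, limma adjusted p = 3.16e-13) and 8.09-fold lower in AML Compound (-3.02, SE 0.14, limma adjusted p = 4.37e-11) than in AML Control. In LSK cells the differences were -0.23 with Dox (SE 0.14) and -0.07 with the compounds (SE 0.15), with limma adjusted p of 0.299 and 0.812. Its responses differed between AML and LSK cells by -3.59 log2 with Dox (SE 0.20, limma adjusted p = 2.42e-10) and by -2.95 with the compounds (SE 0.21, limma adjusted p = 1.6e-08; -2.93 with replicate 1).

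Clec2d (Clr-b) and Clec2i (Clr-g) are surface ligands of Klrb1 receptors: Clr-b binds Klrb1b, an inhibitory receptor of natural killer cells, and Clr-g binds Klrb1f. Clec2d stood at 5.02, 4.87 and 5.25 log2 in AML Dox, at 5.28, 5.62 and 5.36 in AML Compound and at 3.58, 3.38 and 3.64 in AML Control. Both treated AML groups were above AML Control on every array. In LSK cells it read 6.91, 6.85 and 6.95 in LSK Dox, 7.66 and 7.81 in LSK Compound and 7.05, 6.79 and 6.72 in LSK Control, so that LSK Dox overlapped the control. It was higher by 1.51 log2 in AML Dox (SE 0.12, limma adjusted p = 9.45e-09), by 1.89 in AML Compound (SE 0.12, limma adjusted p = 3.67e-09) and by 0.88 in LSK Compound (SE 0.14, limma adjusted p = 6.48e-05). With replicate 1 the LSK Compound difference was -0.34 log2 (limma adjusted p = 0.695), so its direction rests on leaving that array out. For LSK Dox the difference was 0.05 log2 (SE 0.12, limma adjusted p = 0.856).

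Clec2i was higher than in the controls in all 4 treated groups. Its values were 9.52, 9.54 and 9.63 log2 in AML Dox, 8.27, 8.30 and 8.48 in AML Compound and 7.58, 7.57 and 7.46 in AML Control. In LSK cells they were 6.70, 6.74 and 6.48 in LSK Dox, 6.07 and 6.24 in LSK Compound and 4.67, 4.75 and 4.78 in LSK Control. In both cell types Dox gave the highest values, the compounds intermediate ones, and no groups overlapped. The differences were 2.03 log2 in AML Dox (SE 0.09, limma adjusted p = 5.28e-12), 0.81 in AML Compound (limma adjusted p = 3.22e-06), 1.90 in LSK Dox (SE 0.09, limma adjusted p = 1.37e-10) and 1.42 in LSK Compound (SE 0.10, limma adjusted p = 7.69e-09; 0.57 and limma adjusted p = 0.357 with replicate 1). The Dox responses of AML and LSK cells differed by 0.13 log2 (SE 0.13, limma adjusted p = 0.502). The compound response was lower in AML than in LSK cells by 0.61 (log2 difference -0.61, SE 0.14, limma adjusted p = 0.0047), and was 0.24 with replicate 1 (limma adjusted p = 0.84).

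Klrb1f encodes NKR-P1F, the receptor that binds Clr-g. It stood at 2.74, 3.07 and 3.14 log2 in AML Dox, at 5.32, 5.48 and 5.29 in AML Compound and at 5.40, 5.28 and 5.38 in AML Control. In LSK cells it stood at 10.17, 10.15 and 10.003 in LSK Dox, at 3.35 and 2.73 in LSK Compound and at 6.35, 6.25 and 6.26 in LSK Control. LSK Dox was far above, and AML Dox and LSK Compound far below, their controls, while AML Compound and AML Control overlapped. Klrb1f was 14.2-fold higher in LSK Dox (log2 difference 3.82, SE 0.13, limma adjusted p = 2.77e-12) and 5.16-fold lower in AML Dox (-2.37, SE 0.13, limma adjusted p = 8.72e-11). In LSK Compound it was 9.47-fold lower (-3.24, SE 0.15, limma adjusted p = 2.09e-11; -3.35 with replicate 1), and in AML Compound the difference was 0.01 log2 (SE 0.13, limma adjusted p = 0.978). The Dox response in AML minus that in LSK cells was -6.19 log2 (SE 0.19, limma adjusted p = 4.12e-13), the largest in size of the 27 tested genes for this comparison. For the compounds it was 3.25 log2 (SE 0.20, limma adjusted p = 3.43e-09; 3.36 with replicate 1).

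Klra2 encodes Ly49b, a receptor of myeloid cells with an inhibitory motif. It read 5.68, 5.03 and 4.82 log2 in AML Dox, 2.24, 2.14 and 2.28 in AML Compound and 1.92, 1.88 and 1.90 in AML Control. The LSK arrays in the fit lay between 1.91 and 2.56. AML Dox was the only group in which the gene was clearly above the detection level, by 3.27 log2 over AML Control (SE 0.17, limma adjusted p = 2.45e-11), or 2.82 with values below the 40th percentile set to it. Klra2 was above that percentile on 4 arrays, 3 of them AML Dox. It thus passed the filter through the group where it is high, and its call gives no support of its own. The Dox response was higher in AML than in LSK cells by 3.38 log2 (SE 0.24, limma adjusted p = 4.51e-09).

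**Figure D3:**
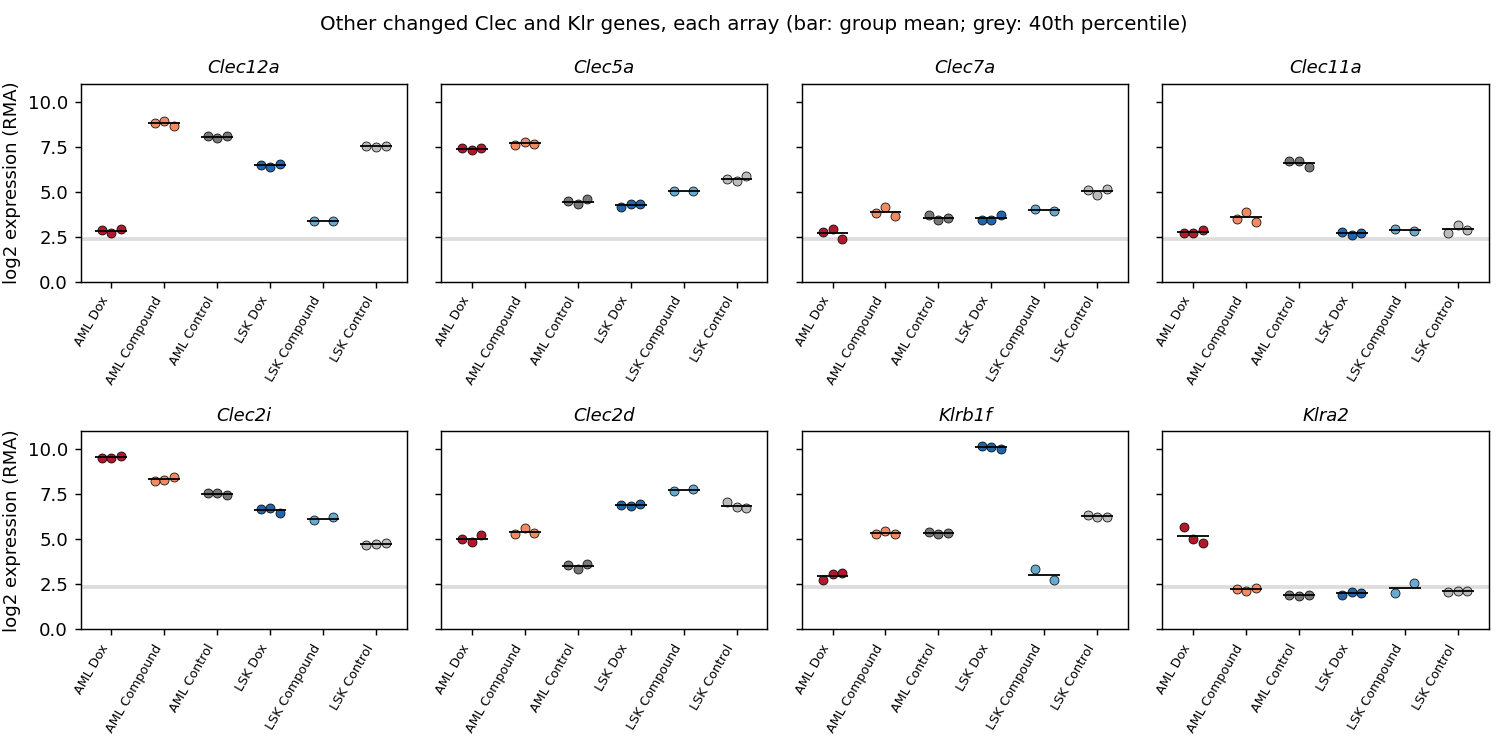
log2 RMA values of Clec12a, Clec5a, Clec7a, Clec11a, Clec2i, Clec2d, Klrb1f and Klra2 on each of the 17 arrays (points) with group means (bars) and the 40th percentile (grey line). Clec12a and Klrb1f are low in AML Dox and LSK Compound, Klrb1f is highest in LSK Dox, and Klra2 is above the line in AML Dox.

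Smaller differences were called for 6 further genes. Clec16a, which encodes a protein of endosomes and mitophagy, was higher in AML Dox by 0.41 log2 (limma adjusted p = 0.00439), with a Dox response 0.57 higher in AML than in LSK cells (limma adjusted p = 0.0065). Klrg2 was higher in AML Compound by 0.58 (limma adjusted p = 0.00337). Clec2g was higher in LSK Dox by 0.44 (limma adjusted p = 0.0269), at 2.53, 2.61 and 2.54 against 2.03, 2.18 and 2.13 log2 in LSK Control, on either side of the detection level. Clec2g was above that level on 3 arrays, all of LSK Dox. It was thus tested only through the group where it is high, and its call gives no support of its own. Clec4f, the galactose receptor of Kupffer cells, was lower in AML Compound by 0.40 (log2 difference -0.40, limma adjusted p = 0.0495) with overlapping arrays, and the call was lost with values below the 40th percentile set to it (limma adjusted p = 0.0667). Clec2m was called only in the difference of the compound responses (0.56, limma adjusted p = 0.0217; 0.23 and limma adjusted p = 0.682 with replicate 1), and Clec18a only between the controls. The tested genes called in none of the 7 comparisons were Clec2l, Clec3a, Clec3b, Klra14-ps, Klrb1 and Klri1.

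**Figure D4:**
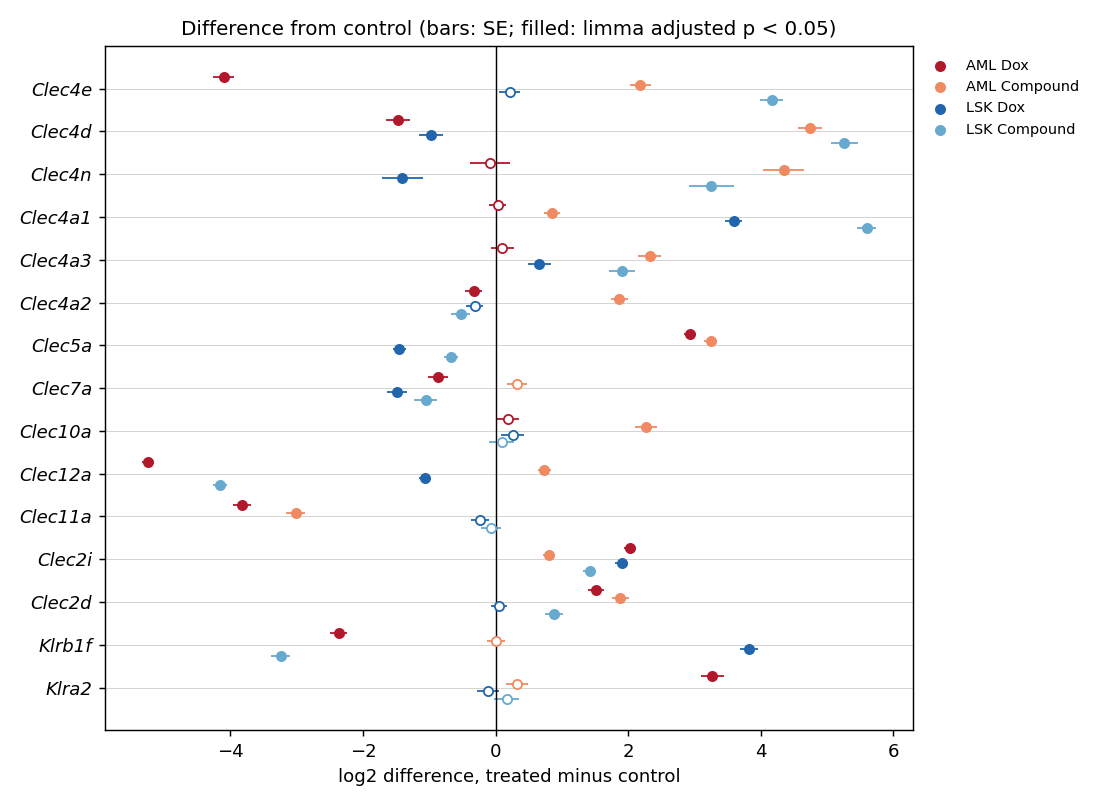
log2 differences of the treated groups from their controls (points, with SE bars) for the 15 genes with a difference of at least 1 log2 in a comparison; filled points have a limma adjusted p under 0.05. The compound values of Clec4e, Clec4d and Clec4n lie to the right in both cell types, and Clec5a, Clec12a and Klrb1f have points on both sides of 0.

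The untreated cells also differed. Between AML Control and LSK Control 14 of the 27 genes were called, 6 higher in AML Control and 8 lower, beside 29.6% of all tested genes (15.4% higher and 14.2% lower). Higher in AML Control were Clec11a (3.67 log2, SE 0.14, limma adjusted p = 2.32e-12, 12.8-fold), Clec2i (2.80, SE 0.09, limma adjusted p = 4.49e-13), Clec4e (1.43, SE 0.16, limma adjusted p = 1.8e-06), Clec18a (0.68, limma adjusted p = 0.00115), Clec12a (0.54, limma adjusted p = 0.000228) and Clec16a (0.34, limma adjusted p = 0.0279). Clec2d was 10.01-fold lower in AML Control (log2 difference -3.32, SE 0.12, limma adjusted p = 1.7e-12), with no overlap between 3.38 to 3.64 there and 6.72 to 7.05 in LSK Control. Also lower were Clec4n (-1.91), Clec7a (-1.47), Clec5a (-1.28), Klrb1f (-0.93), Clec4a1 (-0.73), Clec4d (-0.58) and Klrg2 (-0.40), with limma adjusted p from 1.45e-08 to 0.036. Of these, Clec4d and Klrg2 overlapped between the groups, Clec4a1 lay partly below the detection level (-0.16 and limma adjusted p = 0.378 with values there set to it), and the Clec4d call was lost without AML Control replicate 1, LSK Control replicate 1 or LSK Control replicate 3 (-0.47, -0.51 and -0.45 log2, limma adjusted p = 0.0957, 0.0839 and 0.105).

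The difference between the AML and the LSK response passed for some genes in opposite senses. With the compounds, Clec4e rose less in AML than in LSK cells (-1.98 log2, SE 0.24, limma adjusted p = 8.89e-06), but with replicate 1 the value was 0.50 (limma adjusted p = 0.884). Clec4a2 and Clec2d responded more in AML cells, by 2.39 (SE 0.19, limma adjusted p = 6.41e-08; 2.18 with replicate 1) and 1.004 (SE 0.18, limma adjusted p = 0.000754; 2.23 and limma adjusted p = 0.292 with replicate 1). With Dox, the Clec4e response was lower in AML than in LSK cells (-4.32 log2, SE 0.22, limma adjusted p = 1.26e-10) and the Clec2d response was higher by 1.47 (SE 0.17, limma adjusted p = 2.27e-06). Smaller Dox differences were 1.32 for Clec4n (SE 0.43, limma adjusted p = 0.0206) and 0.62 for Clec7a (SE 0.22, limma adjusted p = 0.0307). The Clec4n call was lost without AML Dox replicate 1, LSK Dox replicate 3 or LSK Control replicate 3 (1.05, 1.18 and 0.99 log2, limma adjusted p = 0.0637, 0.0549 and 0.0614), and the Clec7a call with each array centred on its median (0.54, limma adjusted p = 0.0663). The Clec7a call was also lost without AML Dox replicate 1 or 2, AML Control replicate 2 or 3, LSK Dox replicate 1 or 2, or LSK Control replicate 1 or 3, with values from 0.50 to 0.61 log2 (limma adjusted p = 0.053 to 0.0891).

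**Figure D5:**
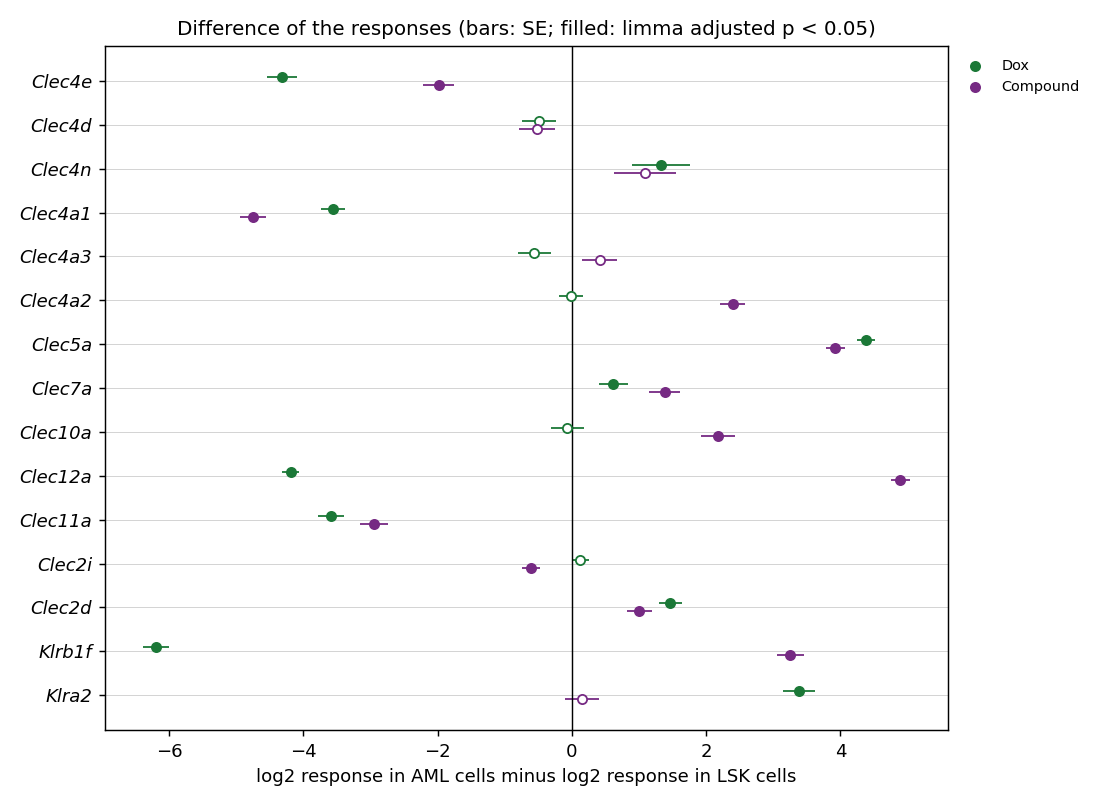
log2 response in AML cells minus log2 response in LSK cells (points, with SE bars) for Dox (green) and the compounds (purple) in 15 genes; filled points have a limma adjusted p under 0.05. Klrb1f lies at -6.19 for Dox and 3.25 for the compounds, Clec12a at -4.19 and 4.89, and Clec5a above 0 for both.

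The genes around these receptors were read from fixed lists that were also chosen with earlier results of these data known. Of 18 measured signalling partners (adaptors, kinases, phosphatases and NF-kB proteins), 13 were lower and 3 higher in AML Dox than in AML Control, with a list median of -0.61 log2 beside -0.01 over all tested genes. Of all tested genes, 48.6% were called in that comparison. The lower signalling partners included the phosphatase Ptpn6 (-1.17, limma adjusted p = 5.1e-10) and the adaptor Card9 (-1.26, limma adjusted p = 2.6e-06). In AML Compound 5 were higher and 5 lower, beside 32.0% of all tested genes, with the adaptor Tyrobp higher by 1.41 (limma adjusted p = 1.81e-07). In LSK Dox 0 were higher and 3 lower, beside 19.1%. In LSK Compound 9 were higher and 6 lower, beside 34.2%, with Malt1, a partner of Card9, higher by 2.08 (limma adjusted p = 6.99e-10). Of 6 tested ligands of Klr receptors, 2 were higher and 1 lower in AML Dox (beside 48.6%) and 2 higher in AML Compound (beside 32.0%). In LSK Dox 1 was higher (beside 19.1%), and in LSK Compound 4 were higher (beside 34.2%). Among them were Ulbp1, a ligand of NKG2D, in AML Dox (-1.15, limma adjusted p = 1.59e-05), H60b, also a ligand of NKG2D, in AML Compound (1.38, limma adjusted p = 4.91e-07), and H2-T23, which encodes Qa-1, in LSK Compound (2.06, limma adjusted p = 1.05e-05).

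Genes with a C-type lectin fold but other symbols were measured for comparison, 30 of 32 entries, of which 20 were tested. In AML Dox 6 were higher and 2 lower (list median 0.12 log2), beside 48.6% of all tested genes called. In AML Compound 10 were higher and 0 lower (median 0.36), beside 32.0%. In LSK Dox 6 were higher and 4 lower (median 0.07), beside 19.1%, and in LSK Compound 7 higher and 3 lower (median 0.08), beside 34.2%. Vcan, the proteoglycan versican, had the largest AML Dox difference of the list (5.70 log2, limma adjusted p = 7.6e-16).

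Among the 4 treatments, the list median of the monocyte and macrophage markers was farthest from 0 in AML Compound. All 8 measured genes of the monocyte and macrophage list were higher in AML Compound than in AML Control (list median 2.12 log2, beside -0.03 over all tested genes), and the mean level of the list was 6.85 to 7.10 log2 on the AML Compound arrays and 4.96 to 5.003 on the AML Control arrays. It was 4.54 to 4.57 in AML Dox, where 3 of the genes were higher and 4 lower. In LSK Compound 4 were higher and 3 lower, at a list level of 6.51 to 6.61 against 5.60 to 5.69 in LSK Control, and in LSK Dox 2 were higher and 2 lower, at 5.57 to 5.65. Of all tested genes, 32.0% were called in AML Compound, 48.6% in AML Dox, 34.2% in LSK Compound and 19.1% in LSK Dox. These shares also stand beside the counts of the lists that follow. The defining marker Adgre1 averaged 9.43 in AML Compound, 5.87 in AML Control, 8.69 in LSK Compound and 4.45 in LSK Control, and Cd14 averaged 7.52, 4.04, 9.69 and 4.88 in the same groups. Both were among the 4 genes higher in LSK Compound. The 3 lower genes there were Ccr2 (-1.92 log2), Mrc1 (-0.94) and Csf1r (-0.46). The list median in LSK Compound was 0.28 log2, beside -0.05 over all tested genes. None of the 8 genes was below the detection level in all groups, and only Mrc1 was below it on any array. The part of these markers in the Clec results was not tested. Of the neutrophil list, 7 of 9 measured genes were tested, with 0 higher and 5 lower in LSK Compound and 0 higher and 4 lower in LSK Dox, at list levels of 3.24 to 3.28 and 4.30 to 4.34 against 4.70 to 4.90 log2 in LSK Control. Their part was not tested either. The mean level of the T cell list was 2.21 to 2.60 log2 on the arrays of all groups, and 1 of its 7 tested genes, the costimulatory receptor Cd28, was higher in AML Compound (1.44 log2, limma adjusted p = 6.03e-07) and in LSK Compound (0.84 log2, limma adjusted p = 0.000393). Of 7 tested dendritic cell genes, 2 were higher and 0 lower in LSK Compound, and likewise in AML Compound. In each Dox group 1 was higher and 1 lower. The 2 in LSK Compound were Ccr7 (2.73 log2) and H2-Ab1 (2.20). The list level was 4.51 to 4.74 in LSK Compound against 3.92 to 4.09 in LSK Control. Of 5 tested mast cell and basophil genes, 0 were higher and 3 lower in AML Dox and likewise in LSK Dox. Of the 8 AML and myeloid progenitor genes, 3 were higher and 5 lower in AML Dox. The numbers were 2 higher and 5 lower in LSK Compound, and 3 higher and 4 lower in LSK Dox. Clec12a was lower in each of these groups. Ctsg and Mpo differed by -6.10 and -3.60 log2 in AML Dox and by -4.66 and -4.93 in LSK Compound, and Elane by -1.96 and -4.33. Higher were Itgam (2.95), Hoxa9 (1.32) and Meis1 (0.61) in AML Dox, and Cd33 (3.01) and Itgam (0.33) in LSK Compound. In AML Compound, where Clec12a was higher, 2 of the 8 genes were higher and 4 lower. Ctsg and Mpo differed there by -2.10 and -3.27, and Cd33 and Itgam by 3.08 and 3.13. Of the 6 tested stem and progenitor genes, 3 were higher and 3 lower in AML Dox (list median -0.03 log2, beside -0.01 over all tested genes). Cd34, Kit and Flt3 differed by -5.23, -2.78 and -0.47 log2, and Procr, Mecom and Hlf by 0.45, 0.61 and 0.42. The part of none of these was tested.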

How the data were processed

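RNA of sorted mouse cells was measured on 1-colour Affymetrix arrays. Groups came from the sample titles. The deposited log2 expression values were made by the authors with RMA, per the submitters' processing notes; RMA's version, the genome build and any centring were not given in the sources used here. Values were used as deposited. Of 41345 probe sets, the probe table names 1 gene for 23521, several for 1814, and does not list 16010. Only the first kind was named, and 1 probe set per gene (highest mean) was kept. The Entrez IDs of 53 of the 54 genes matched the RefSeq table. Probe sets with several Clec or Klr genes (5) were left out.

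Genes above the 40th percentile of the array on at least 3 of 17 arrays entered a limma fit (limma 3.58.1, R 4.3.3; 1 mean per group, contrasts, eBayes, Benjamini-Hochberg adjustment over 16337 genes, threshold 0.05). The fit had 11 residual degrees of freedom; the prior SD was 0.143 log2. Precision is limited by the number of arrays. Described in full were genes called with a log2 difference of at least 1. The genes and lists were chosen with earlier results of these data known. Alternatives were all 18 arrays, the compared groups alone, median centring, quantile normalization, no filter, a 60th percentile filter, the lowest-mean probe set, each array left out in turn, a block for the replicate number and, added after the data were seen, values below the 40th percentile set to it. The limma step was tested on simulated data. Promoter windows came from RefSeq (GRCm38.p6); 42 of the 54 genes had one. Levels of different probe sets were not compared.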

Additional observations from a re-analysis of the deposited data

Results flagged for a closer look

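In 11 genes with Dox and 12 with the compounds, the test of the difference between the AML and the LSK response passed, by limma over all tested genes. Of all tested genes, 40.1% passed with Dox and 17.1% with the compounds. With Dox the response in AML minus that in LSK cells was -6.19 log2 for Klrb1f, -4.32 for Clec4e, -4.19 for Clec12a, -3.59 for Clec11a and -3.56 for Clec4a1. It was 4.39 for Clec5a, 3.38 for Klra2, 1.47 for Clec2d, 1.32 for Clec4n, 0.62 for Clec7a and 0.57 for Clec16a. With the compounds it was 4.89 log2 for Clec12a, 3.92 for Clec5a, 3.25 for Klrb1f, 2.39 for Clec4a2, 2.18 for Clec10a, 1.38 for Clec7a, 1.004 for Clec2d and 0.56 for Clec2m. It was -4.75 for Clec4a1, -2.95 for Clec11a, -1.98 for Clec4e and -0.61 for Clec2i. Clec12a and Klrb1f turned sign between the treatments, which share the same control arrays. Klra2 and Clec4a2 passed the filter through the group where each is high, so their values here give no support of their own.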

How the results depend on the processing

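Leaving out each array in turn gave 11 to 12 called genes for AML Dox (12 with all arrays of the fit), 13 to 17 for AML Compound (14), 8 to 10 for LSK Dox (10), 11 to 13 for LSK Compound (12), 11 to 14 for AML Control against LSK Control (14), 9 to 12 for the Dox responses (11) and 11 to 13 for the compound responses (12). With all 18 arrays the counts were 9 for AML Dox, 8 for AML Compound, 5 for LSK Dox, 6 for LSK Compound, 7 between the controls, 5 for the Dox responses and 7 for the compound responses; this fit shares 1 estimate of the spread with an array that stands apart. It turned the sign of Clec2d in LSK Compound (-0.34 log2) and of the compound response differences of Clec2i (0.24), Clec4e (0.50) and, not called in either fit, Clec4d (1.65). With values below the 40th percentile set to it, the log2 difference of Clec4a2 in AML Dox was 0.045. Over all genes, the 18-array fit called 4240, 1064, 602 and 2925 genes in AML Dox, AML Compound, LSK Dox and LSK Compound, against 7935, 5232, 3127 and 5590. The other settings kept every total within 1.5 times. Of the counts by direction, that of genes lower in AML Compound (2) was 1 with no filter, the 60th percentile filter, the lowest-mean probe set, the block and the values set to the 40th percentile, and without AML Compound replicate 1 or 2 or AML Control replicate 1 or 2. That of genes higher in LSK Dox (5) was 3 without LSK Dox replicate 2 or LSK Control replicate 3. Same-numbered arrays did not deviate together (12 correlations from -0.06 to 0.04), so no pairing by number was seen. Pairs with LSK Compound, and of Dox with compound arrays, were not checked. As the labels name no animals, the check cannot tell whether same-numbered arrays share an origin. The fit with the replicate number as a block called 12, 13, 10, 12, 14, 11 and 13 genes in the same order. LSK Compound rests on 2 arrays, and the signal over background limits what can be said of genes near the detection level.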
